A study of Arabidopsis thaliana with 23 samples.

Results

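The genes described here are 10 Arabidopsis thaliana genes whose transcripts are known to accumulate when phosphate runs short, read in the 32833 genes of one count table and the 32224 of the other. They were taken by gene identifier and were chosen by their known role and with the measured rac-GR24 against DMSO change in view, that of PEPC1 in particular, so the rac-GR24 values of the 10 genes are a description with no test, and no count over the 10 genes supports a statement about the pathway. All 10 passed the filter on low counts in both tables.

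RNA was sequenced from 15 libraries of Col-0 background plants, 3 in each of 5 groups. Whole seedlings were grown for 7 days on half-strength MS medium with sucrose that held either 2.5 µM rac-GR24, a synthetic strigolactone analogue supplied as a mixture of stereoisomers, or its solvent DMSO. Axillary tissue, meaning the buds together with the rosette leaf axil beneath them, came from intact wild type (WT) plants, from intact brc1-2 mutants, which lack function of the branching repressor BRC1, and from WT plants whose main shoot had been cut off below the lowest cauline node. The main inflorescence was about 1 cm long at decapitation, and the labels give neither plant age nor the time from cutting to harvest. Nor do they state that replicate libraries derive from different plants, and the p-values therefore reflect only library-to-library spread, which may be technical. Seedling and axillary libraries carry different batch labels and were scaled and tested separately.

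Plants short of phosphate switch on a common set of genes through the transcription factor PHR1 and its relatives. When phosphate is plentiful, SPX proteins, bound to inositol pyrophosphates, hold PHR1 back. Once released, PHR1 raises transporters that take phosphate up, phosphatases that free it from organic compounds, and enzymes that replace membrane phospholipids with galactolipids and sulfolipids. The microRNA miR399 lowers PHO2, an enzyme that marks transporters for breakdown, and the RNAs IPS1 and At4 sequester that microRNA as target mimics.

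BRC1 was read first as a check of the genotype. It had 392, 373 and 423 counts in the intact WT libraries but 2, 4 and 2 in the mutant (edgeR adjusted p = 1.9e-19). The seedling libraries had totals of 31209344 to 44442493 counts, and the axillary ones 47462342 to 61228766. The 5 leaf markers were present in all groups. The 12 root markers summed to between 2890 and 3160 CPM on DMSO and to between 179 and 521 CPM in the axillary libraries, and in all libraries most of the sum was PYK10. The root hair regulator RHD6 was at 0 in all 3 axillary groups. The 5 meristem and axil markers summed to between 47.0 and 54.6 CPM in axillary tissue and to between 7.1 and 10.6 CPM in seedlings. Most of the axillary sum was STM, at a mean of 46.25 CPM in intact WT against 4.108 CPM on DMSO. CUC2 (3.289 against 0.5541 CPM) and CUC3 (1.918 against 1.32 CPM) were also higher in intact WT. RAX1 was near level (1.238 against 1.195 CPM), and LAS was lower in intact WT (0.8706 against 1.907 CPM).

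The signalling members are 1 RNA and 3 SPX genes. IPS1 (AT3G09922, TAIR10 chromosome 3, 3050989 to 3051530, plus strand) acts as a non-coding target mimic. SPX1 is AT5G20150 (chromosome 5, 6802282 to 6803655, plus strand). SPX2 is AT2G26660 (chromosome 2, 11338752 to 11340950, plus strand), and SPX3 is AT2G45130 (chromosome 2, 18606410 to 18607853, plus strand). These 3 SPX genes encode sensors that restrain PHR1. Because SPX1 and SPX3 are themselves raised by phosphate shortage, they also serve as markers of the response.

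The transporter members are PHT1;1 (AT5G43350, chromosome 5, 17399769 to 17402158, minus strand) and PHT1;4 (AT2G38940, chromosome 2, 16257157 to 16260253, plus strand), plasma membrane proteins that carry most phosphate into the root. The phosphatase members are PEPC1 (AT1G17710, chromosome 1, 6090405 to 6092027, minus strand), which acts on phosphoethanolamine and phosphocholine and is not the carboxylase of the same abbreviation, and PS2 (AT1G73010, chromosome 1, 27464528 to 27466348, minus strand), known to split pyrophosphate. The lipid members are SQD2 (AT5G01220, chromosome 5, 86543 to 90117, minus strand), which completes the sulfolipid, and MGD3 (AT2G11810, MGDC in RefSeq, chromosome 2, 4743162 to 4746813, plus strand), a galactolipid synthase. Positions run from the first to the last exon base of each gene. None of the 10 shared an exon base with another annotated gene of the table (0 bases).

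Levels per length differed widely among the genes. In DMSO seedlings PHT1;1 stood highest, at 97.8 ± 9.28 CPM per kilobase of exon (SD, n = 3), followed by SQD2 (79.9 ± 16.5), SPX1 (61.3 ± 7.58), PHT1;4 (34.5 ± 2.20), SPX2 (26.7 ± 2.62) and PS2 (14.8 ± 5.56). PEPC1 (5.08 ± 1.44), MGD3 (2.50 ± 0.835), IPS1 (2.04 ± 0.820) and SPX3 (0.786 ± 0.394) were the lowest. In intact WT axillary tissue SQD2 was highest (20.6 ± 0.542 CPM per kilobase), with SPX2 (16.4 ± 1.47) and SPX1 (11.6 ± 0.231) next, while PHT1;1 was down to 0.213 ± 0.102 and IPS1 to 0.211 ± 0.161.

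Every member had its DMSO level above its intact WT axillary level, set side by side across separately scaled tables and without a test. The ratio of mean CPM was 460 for PHT1;1 and 29.1 for PHT1;4, against 11.2 for PEPC1, 9.65 for IPS1, 5.29 for SPX1, 3.87 for SQD2, 3.86 for PS2, 2.82 for MGD3, 2.53 for SPX3 and 1.63 for SPX2. Seedlings include roots, and the root markers were also far higher there, as given above. In such bulk samples, fewer cells of a type and less RNA per cell cannot be told apart.

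**Figure D1:**
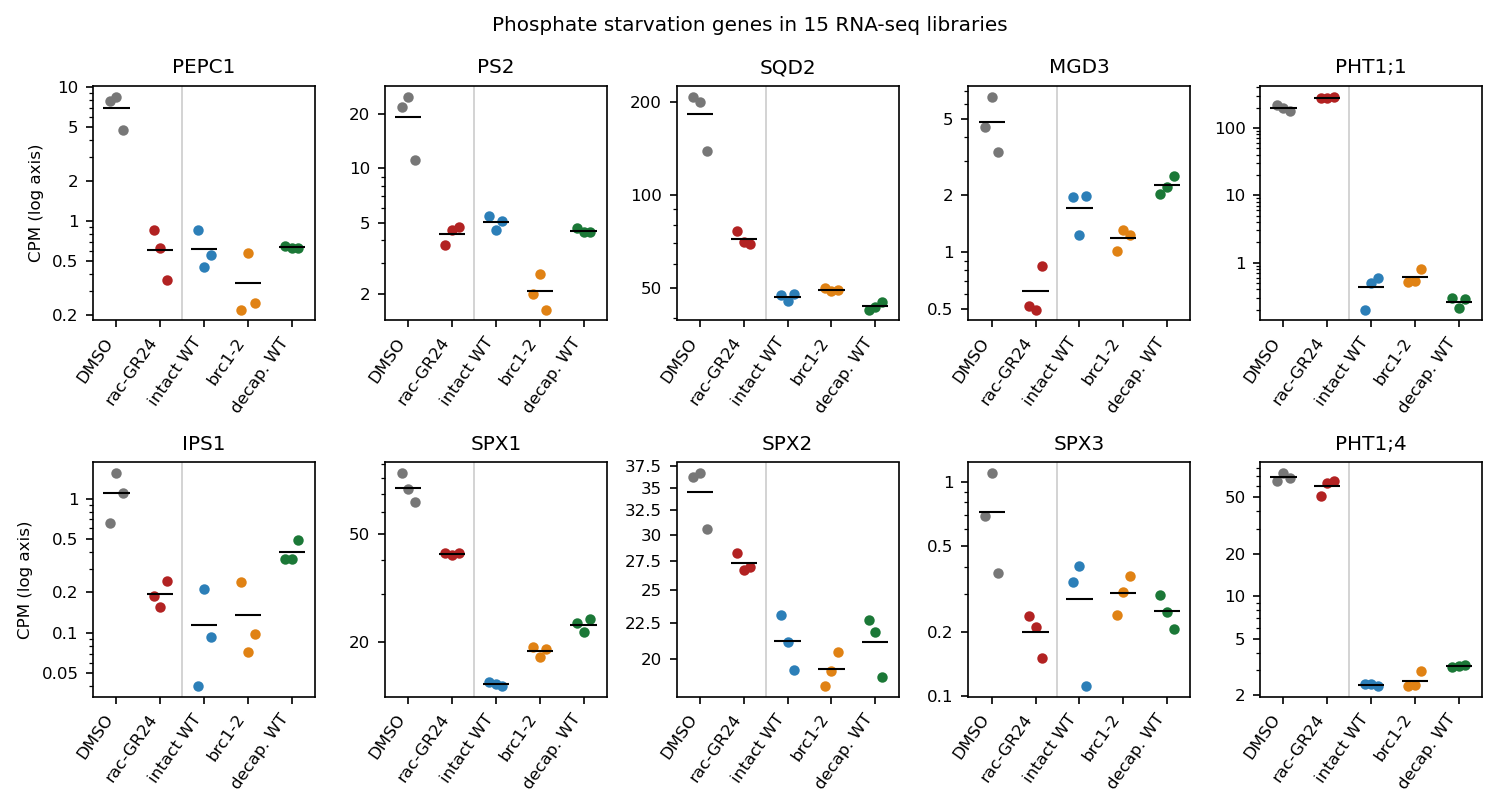
CPM of the 10 genes in each library (points) with group means (bars), on a log axis, for the 2 seedling groups left of the grey line and the 3 axillary groups right of it. DMSO points lie above rac-GR24 points for 8 genes, a gap that the low-count filter fixed for IPS1 and SPX3. The 2 PHT1 transporters are at low levels in axillary tissue.

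On rac-GR24, 8 of the 10 genes were lower than on DMSO with no overlap of libraries, PHT1;1 was higher with no overlap, and PHT1;4 overlapped. The 8 include IPS1 and SPX3, for which the low-count filter fixed the lack of overlap. Over all 21063 genes tested in seedlings, 39.0% had libraries that did not overlap, 19.5% lower and 19.4% higher on rac-GR24. The median log2 change was -1.56 over the 10 genes and -0.0017 over all genes tested. These members were chosen with this contrast in view, and nothing is read from either count. Each log2 change carries a standard error (SE) derived from edgeR's F statistic, by dividing the absolute change by the root of F.

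Among the signalling genes, IPS1 was counted 22, 48 and 50 times in the DMSO libraries but 8, 6 and 8 times in those of rac-GR24, a log2 change of -2.48 ± 0.46 (SE, n = 3 per group). SPX3 had 23, 34 and 17 counts against 10, 8 and 5 (-1.79 ± 0.52). Both genes were carried past the low-count filter by the DMSO libraries, since no rac-GR24 library reached its minimum, so a difference between groups was fixed by the filter. The well expressed SPX1 had 83.4, 73.0 and 65.2 CPM on DMSO and 42.3, 41.8 and 42.3 CPM on rac-GR24 (-0.81 ± 0.08). SPX2 moved least of the signalling members, from 36.2, 36.7 and 30.6 CPM to 28.3, 26.7 and 27.0 CPM (-0.33 ± 0.08). In all 4 genes each rac-GR24 library was below each DMSO library, which for IPS1 and SPX3 the filter had fixed in advance.

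The phosphatase PEPC1 showed the largest difference of the 10, with DMSO counts of 260, 262 and 214 against rac-GR24 counts of 36, 24 and 12 (-3.46 ± 0.29). PS2 had 736, 776 and 506 counts against 160, 175 and 156 (-2.15 ± 0.23). On rac-GR24 the mean CPM of PEPC1 (0.613) and PS2 (4.35) stood beside 0.624 and 5.03 in intact WT axillary tissue, with no test across the tables. The lipid genes were also lower throughout. MGD3 went from 152, 203 and 152 counts to 22, 19 and 28 (-2.96 ± 0.30), and SQD2 from 208, 199 and 139 CPM to 76.7, 70.3 and 69.4 CPM (-1.33 ± 0.12). The groups were far apart for all 4 genes of these roles.

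The transporters did not share this pattern. PHT1;1 was higher on rac-GR24, at 282, 273 and 291 CPM against 216, 195 and 179 CPM on DMSO (0.52 ± 0.07). PHT1;4 read 65.2, 73.8 and 68.1 CPM on DMSO and 51.1, 62.9 and 65.4 CPM on rac-GR24, with overlapping libraries (-0.21 ± 0.08). Of the 12 root markers, 6 rose on rac-GR24 and 0 fell (edgeR adjusted p under 0.05), and 6 did not pass. Their summed level went from a range of 2890 to 3160 CPM to one of 4957 to 5214 CPM, almost all of it PYK10 (0.78). Without PYK10 the other 11 markers summed to 150, 124 and 120 CPM on DMSO and to 171, 204 and 130 CPM on rac-GR24, and the groups overlapped. Among those that rose were the root hair genes EXPA7 (1.00) and RHD6 (0.86), while the endodermal gene CASP1 (-0.06) did not pass. Their part in the transporter values was not tested. PHT1;1 has a near-identical copy, PHT1;2, close by. The treatment of reads that match several copies is unknown here, so the counts of PHT1;1 are uncertain. Of the counts over PHT1;1, PHT1;2 and PHT1;3, PHT1;1 held 99.4% on DMSO and 99.8% on rac-GR24.

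**Figure D2:**
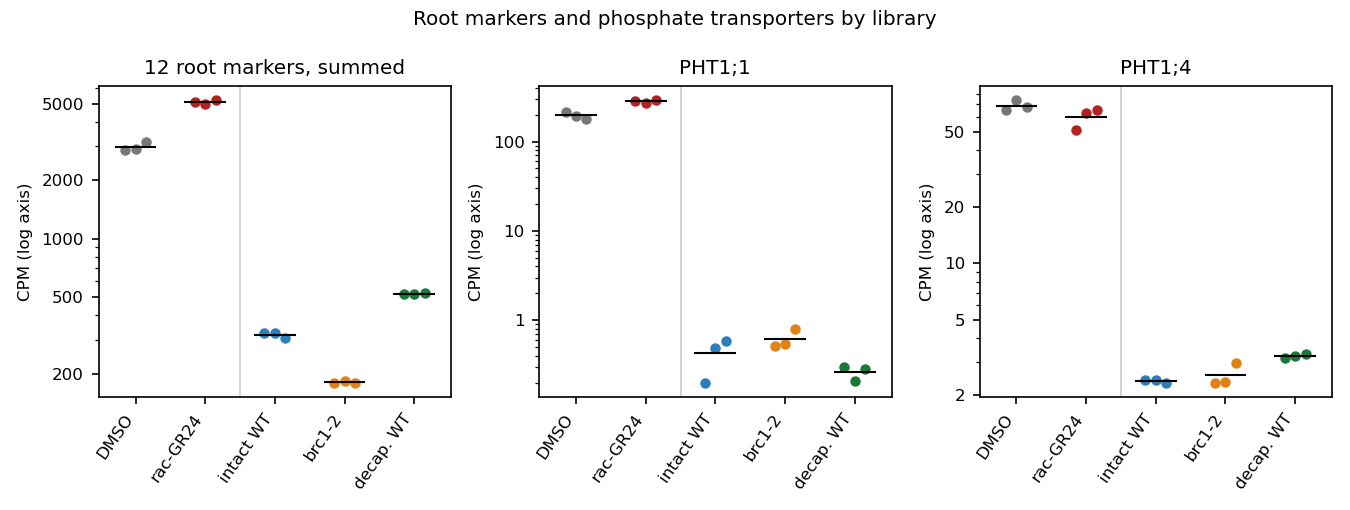
Summed CPM of 12 root markers, and CPM of PHT1;1 and PHT1;4, in each library (points; bars are group means; log axes). The summed markers, of which PYK10 makes up most, and PHT1;1 are higher on rac-GR24 than on DMSO, while the sum without PYK10, not plotted, overlaps between these groups. All 3 panels are far lower in axillary tissue.

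DMSO replicate 3 read lowest of its group for 8 of the 10 genes, DMSO replicate 1 for the other 2. Without DMSO replicate 3 and under the other alternatives that still tested a gene, the log2 changes on rac-GR24 stayed between -3.78 and -3.22 for PEPC1, between -2.44 and -1.93 for PS2, between -3.22 and -2.68 for MGD3 and between 0.45 and 0.59 for PHT1;1.

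The rest of the pathway was read from 75 other genes listed by role from general knowledge, a list drawn up with earlier results of these data known. Of these, 60 were tested in seedlings, and 10 rose and 13 fell on rac-GR24. That is 38.3% called, against 24.0% of all 21063 genes, with a median log2 change of 0.02. Of 16 lipid remodelling genes tested 8 fell and 3 rose, where 11.7% of all genes fell and 12.4% rose. Of the 5 leaf markers 2 fell and 0 rose on rac-GR24, with a summed level of 23021 to 24404 CPM against 24582 to 28891 CPM on DMSO, and their part in the lipid values was not tested. Of 22 signalling genes 4 rose and 2 fell, of 12 transport genes 2 rose and 1 fell, and of 10 genes of phosphate recycling 1 rose and 2 fell.

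The gene with the smallest p of the 75 was At4 (AT5G03545), the second target-mimic RNA, whose DMSO counts were 1154, 1341 and 1514 and whose rac-GR24 counts were 369, 370 and 280. Its groups lay far apart, and it fell by 2.05 on the log2 scale (SE 0.11, edgeR adjusted p = 1e-08). PHO2, the target of the microRNA, rose slightly (0.27 ± 0.06, edgeR adjusted p = 0.0051). The purple acid phosphatase gene AtPAP17 fell, from 2785, 2530 and 2669 counts to 1333, 1219 and 957 (-1.28 ± 0.11, edgeR adjusted p = 1.3e-06). In sulfolipid synthesis SQD1 (-0.76 ± 0.07) and UGP3 (-0.81 ± 0.09), which make its sugar donor, fell along with the values of SQD2 given above. MGD2, the other galactolipid synthase of the phosphate response (-1.56 ± 0.17), and PLDZ2, a phospholipase D (-1.17 ± 0.13), fell as well. The edgeR adjusted p lay between 2.7e-06 and 1.8e-05 for these 4 lipid genes.

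Other pathway genes rose on rac-GR24. WRKY6, a transcription factor known to repress PHO1, rose most clearly (0.89 ± 0.08, edgeR adjusted p = 1.9e-06). PHO1 itself was also higher (0.25 ± 0.06, edgeR adjusted p = 0.0072). GDPD2, a glycerophosphodiester phosphodiesterase, rose too (0.83 ± 0.09, edgeR adjusted p = 1.5e-05). The acid phosphatase AtPAP26 (0.33), the multicopper oxidase LPR2 (0.37), the phosphodiesterase GDPD5 (0.42) and the phospholipase NPC4 (0.69) also rose. PHR1, the regulator itself, did not pass (-0.09 ± 0.06, edgeR adjusted p = 0.34), nor did its relative PHL1 (-0.06 ± 0.10, edgeR adjusted p = 0.72). Of the 6 MIR399 loci, MIR399A, MIR399E and MIR399F held 0 counts in every library of both tables. Summed over the DMSO and rac-GR24 libraries, MIR399B held 7 and 2 counts, MIR399C 21 and 4, and MIR399D 0 and 3. None of these reached the filter, and the groups overlapped for MIR399C.

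**Figure D3:**
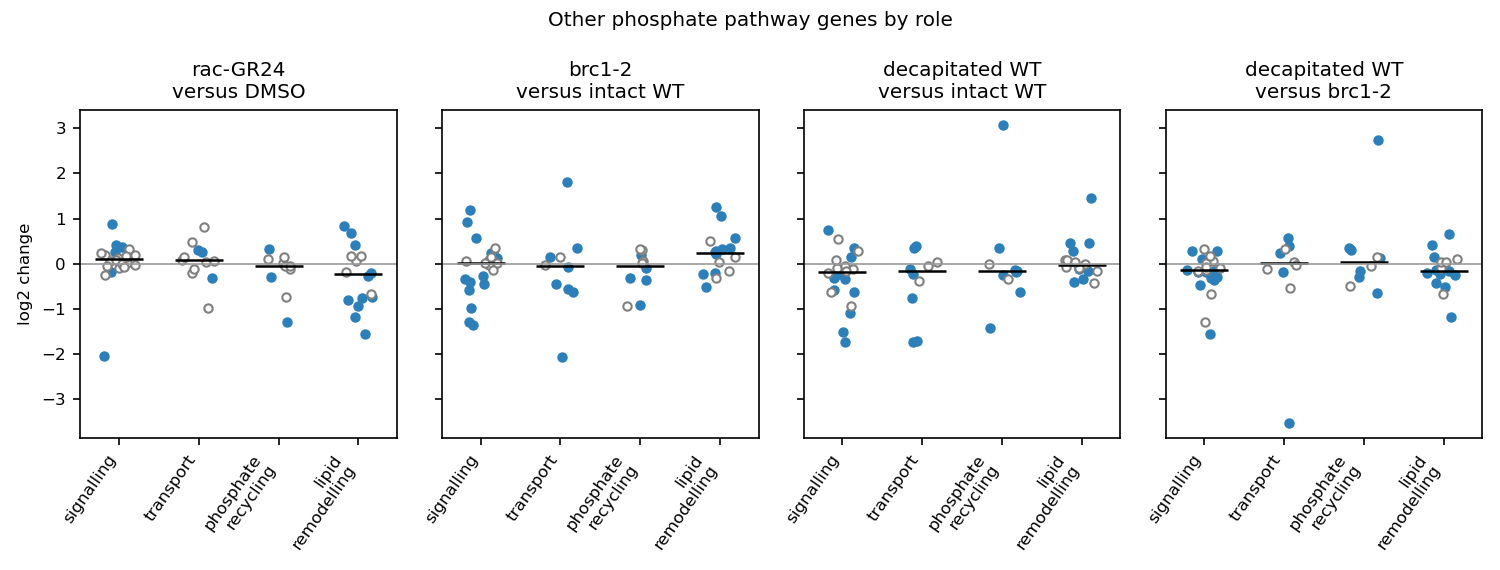
Log2 changes of the other pathway genes tested, by role, in 4 comparisons (filled, edgeR adjusted p under 0.05; open, not passed; bars, medians). The lipid genes lie mostly below 0 on rac-GR24 and mostly above 0 in brc1-2.

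In brc1-2 axillary tissue the changes among the 10 genes were mixed. PS2 and MGD3 fell, SPX1 rose and 7 genes did not pass. That is 3 of 10, in a comparison where 60.9% of the 21539 genes tested were called, 30.4% higher and 30.5% lower. Libraries did not overlap for 65.8% of all genes, 33.2% higher and 32.6% lower, and for 3 of the 10 members, SPX1, SQD2 and PS2. The median log2 change was 0.08 over the 10 genes and 0.0043 over all genes.

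PS2 had the largest fall. Its libraries held 273, 259 and 275 counts in intact WT and 101, 144 and 100 in brc1-2, and the groups did not overlap (-1.28 ± 0.15, edgeR adjusted p = 1.8e-08). PEPC1, the other phosphatase, had 43, 26 and 30 counts against 11, 32 and 15, so that one mutant library lay within the WT range (-0.83 ± 0.40, edgeR adjusted p = 0.072). It passed without intact WT replicate 2 (edgeR adjusted p = 0.048) or without the brc1-2 library called 2a (edgeR adjusted p = 0.01).

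SPX1 rose from 715, 794 and 740 counts to 964, 983 and 1143, with no overlap on the CPM scale (0.41 ± 0.06, edgeR adjusted p = 1.8e-06). SPX2 (-0.13 ± 0.07), SPX3 (0.09 ± 0.47) and IPS1 (0.18 ± 0.66) did not pass. IPS1 had 2, 12 and 5 counts in intact WT and 12, 4 and 6 in brc1-2. SPX2 passed in the single fit without intact WT replicate 3 (edgeR adjusted p = 0.028).

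MGD3 had 97, 70 and 106 counts in intact WT and 51, 73 and 75 in brc1-2. Its groups overlapped, and it fell narrowly (-0.52 ± 0.22, edgeR adjusted p = 0.041). That call was lost in 4 fits that each left out 1 library, intact WT replicates 1 and 3 and brc1-2 libraries 1 and 2b (edgeR adjusted p from 0.066 to 0.17). SQD2 read 47.4, 45.6 and 47.9 CPM in intact WT and 49.98, 48.8 and 49.3 CPM in brc1-2 (0.07 ± 0.04, edgeR adjusted p = 0.14). The transporters PHT1;1 (0.53 ± 0.40) and PHT1;4 (0.10 ± 0.15) did not pass, the former at 10 to 49 counts per library. The summed root markers were lower in brc1-2, at 179 to 182 CPM against 306 to 325 CPM, most of it PYK10, which fell (-0.82). Without PYK10 the other 11 summed to 1.19, 1.18 and 1.53 CPM in brc1-2. In intact WT these 11 summed to 1.08, 1.4 and 1.56 CPM, so the groups overlapped. Of 5 root markers tested NRT2.1 (-1.57) was also called, but 0 of 3 brc1-2 libraries reached the filter's minimum, so the filter fixed that call in part. The part of the root markers in the values above was not tested.

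Of the 75 other pathway genes 58 were tested in axillary tissue, and in brc1-2 18 rose and 20 fell. That is 65.5%, near the 60.9% of all genes. At4 fell from 2388, 2760 and 2524 counts to 996, 1064 and 1196 (-1.29 ± 0.06, edgeR adjusted p = 2.5e-17). The kinase gene PPCK1 (-0.92 ± 0.04), the glycerol-3-phosphate permease family gene G3Pp1 (-0.62 ± 0.04), PHO1, which loads phosphate into the xylem (-0.56 ± 0.04), PHO2 (-0.44 ± 0.03) and AT1G63010 (-0.45 ± 0.04) also fell (edgeR adjusted p between 1.2e-16 and 3.6e-11).

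The 6 pathway genes with the smallest p among those that rose in brc1-2 were all of lipid metabolism. UGP3 rose by 0.57 ± 0.04, GDPD6 by 1.25 ± 0.13, SQD1 by 0.32 ± 0.04, GDPD2 by 1.05 ± 0.12 and the galactolipid synthases DGD1 by 0.35 ± 0.04 and MGD1 by 0.29 ± 0.04 (edgeR adjusted p between 4.7e-13 and 2.1e-07). In all, 8 of 16 lipid genes tested rose and 3 fell, against 30.4% and 30.5% of all genes. Of 10 transport genes 3 rose and 5 fell, of 10 recycling genes 1 rose and 4 fell, and of 22 signalling genes 6 rose and 8 fell. MGD1 and DGD1 belong to the galactolipid pathway of the chloroplast, and 4 of the 5 leaf markers rose in brc1-2 too, with a summed level of 24844 to 25151 CPM against 20737 to 20849 CPM in intact WT. The part of leaf tissue in these lipid values was not tested.

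**Figure D4:**
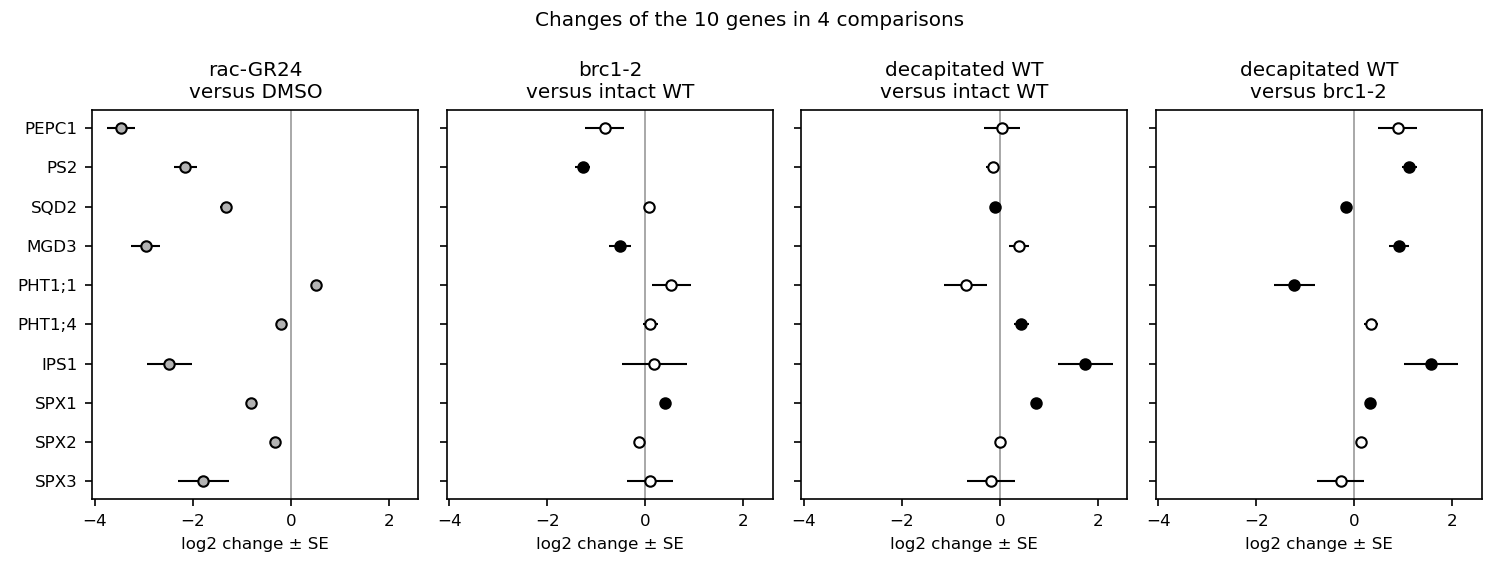
Log2 change and SE of the 10 genes in 4 comparisons (n = 3 libraries per group; grey points, rac-GR24, described without a test; black, edgeR adjusted p under 0.05; open, not passed). Values on rac-GR24 reach -3.46, while most axillary values lie within 1 of 0.

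After decapitation SPX1 and PHT1;4 rose, and SQD2 was called lower by a small margin. IPS1 was also called higher, but it passed the low-count filter only through its decapitated libraries, so that call was fixed in part by the filter and is not counted as a result. In this comparison 62.9% of all 21539 genes were called, 29.4% higher and 33.5% lower. Libraries did not overlap for 65.9% of all genes, 30.7% higher and 35.2% lower, and, leaving out IPS1, for 4 of the other 9 members, 3 of them higher. The median log2 change was 0.02 over the 10 genes and -0.035 over all genes.

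SPX1 rose from 715, 794 and 740 counts in intact WT to 1262, 1233 and 1184 after decapitation, with no overlap (0.73 ± 0.06, edgeR adjusted p = 2.8e-11). IPS1 had 2, 12 and 5 counts in intact WT and 19, 20 and 24 after decapitation (1.74 ± 0.56, edgeR adjusted p = 0.0086). Every decapitated library read above every intact library, but only 1 of 3 intact libraries reached the filter's minimum, and the call was lost without intact WT replicate 1 (edgeR adjusted p = 0.058). SPX2 (0.00 ± 0.07) and SPX3 (-0.19 ± 0.49) did not pass.

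PHT1;4 rose from 2.40, 2.40 and 2.32 CPM to 3.15, 3.23 and 3.30 CPM, again without overlap (0.44 ± 0.15, edgeR adjusted p = 0.013). PHT1;1 had 10, 28 and 32 counts in intact WT and 16, 12 and 14 after decapitation (-0.70 ± 0.44, edgeR adjusted p = 0.17). It passed as lower in the fit without intact WT replicate 1 (edgeR adjusted p = 0.047). The summed root markers were higher after decapitation, 514 to 521 CPM against 306 to 325 CPM, most of it PYK10, which rose (0.70). Without PYK10 the other 11 summed to 1.39, 1.3 and 1.11 CPM after decapitation. In intact WT these 11 summed to 1.08, 1.4 and 1.56 CPM, so the groups overlapped. Of the 12 root markers 5 were tested, and WOX5 (1.74) and IRT1 (-1.89) were also called, but both passed the low-count filter only through groups where they were high, so the filter fixed those calls in part. The part of the root markers in the PHT1;4 value was not tested.

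The phosphatases did not pass. PS2 read 252, 252 and 217 counts after decapitation, close to intact WT (-0.15 ± 0.14, edgeR adjusted p = 0.34), and PEPC1 35, 36 and 31 counts (0.04 ± 0.37, edgeR adjusted p = 0.93). MGD3, at 109, 125 and 122 counts, lay above all intact libraries on the CPM scale without passing (0.39 ± 0.21, edgeR adjusted p = 0.10). SQD2 read 42.6, 43.4 and 45.1 CPM and was called lower (-0.10 ± 0.04, edgeR adjusted p = 0.034). That call was lost in 9 of 13 alternatives (adjusted p from 0.084 to 0.18), among them DESeq2, DESeq2 size factors and the fit of only these 2 groups.

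Among the other pathway genes 11 rose and 24 fell after decapitation of 58 tested (60.3% called, against 62.9% of all genes), with a median log2 change of -0.14. At4 fell from 2388, 2760 and 2524 counts to 825, 842 and 607 (-1.74 ± 0.06, edgeR adjusted p = 5.9e-20). After decapitation the level of At4 was 15.1 ± 1.64 CPM per kilobase and that of IPS1, the other target mimic, 0.735 ± 0.148 CPM per kilobase (SD, n = 3). PHO1 (-0.75 ± 0.04), PHO2 (-0.58 ± 0.03), PPCK1 (-0.62 ± 0.04), LPR2 (-0.63 ± 0.05) and WRKY45, an activator of PHT1;1 (-1.10 ± 0.12), also fell (edgeR adjusted p between 8.4e-16 and 5e-09).

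The secreted ribonuclease gene RNS1, known to respond to both phosphate shortage and wounding, rose from 4, 16 and 20 counts to 123, 146 and 69 (3.07 ± 0.37, edgeR adjusted p = 3e-08). GDPD2 (1.46 ± 0.12), SQD1 (0.47 ± 0.04), the mitochondrial phosphate carrier PHT3;1 (0.36 ± 0.03), the ATPase gene PDR2 (0.34 ± 0.04) and AT5G15070 (0.75 ± 0.08) rose as well (edgeR adjusted p between 2.6e-12 and 6.9e-09). Lipid genes as a group split evenly, with 4 of 16 higher and 4 lower. Of 10 genes of phosphate recycling 2 rose and 6 fell, of 10 transport genes 2 rose and 5 fell, and of 22 signalling genes 3 rose and 9 fell, where 29.4% of all genes rose and 33.5% fell. All 5 leaf markers fell, from 20737 to 20849 CPM in intact WT to between 16112 and 16730 CPM, and their part in these counts was not tested.

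**Figure D5:**
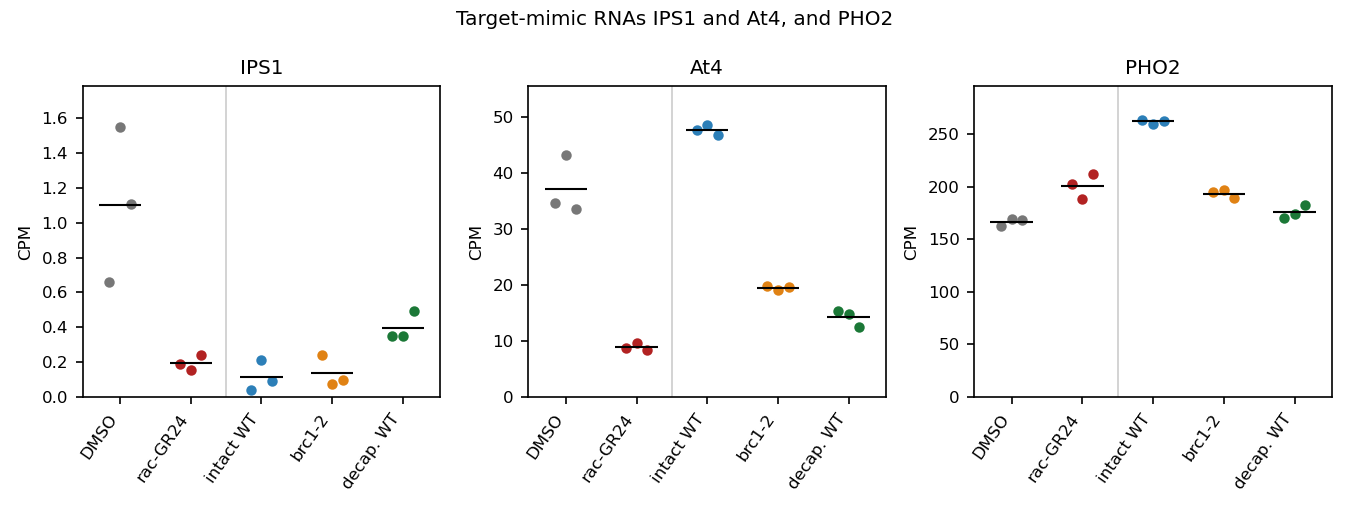
CPM of the target-mimic RNAs IPS1 and At4 and of PHO2 in each library (points; bars are group means; each panel has its own linear axis from 0). At4 is highest in intact WT and lowest on rac-GR24, and IPS1 is highest on DMSO. Seedling and axillary libraries were scaled separately, with no test across them.

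Decapitated WT and brc1-2 were each compared above with the same 3 intact WT libraries, so those values share their controls. Compared directly, PS2, SPX1 and MGD3 were higher in decapitated WT and PHT1;1 and SQD2 were lower, with IPS1 left out of that count for the filter's part in its call, where 48.5% of all genes were called, 24.4% higher and 24.1% lower. Libraries did not overlap for 54.5% of all genes, 27.2% higher and 27.3% lower, and, again without IPS1, for 7 of the other 9 members, 5 of them higher. PS2 read 252, 252 and 217 counts in decapitated WT and 101, 144 and 100 in brc1-2 (1.12 ± 0.15, edgeR adjusted p = 3.4e-07). MGD3 (0.91 ± 0.21, edgeR adjusted p = 0.00075) and SPX1 (0.32 ± 0.06, edgeR adjusted p = 5.2e-05) were also higher, and SQD2 was lower (-0.18 ± 0.04, edgeR adjusted p = 0.00098). For all 4 genes the libraries did not overlap.

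PHT1;1 was lower in decapitated WT, at 16, 12 and 14 counts against 26, 30 and 49 (-1.23 ± 0.42, edgeR adjusted p = 0.018), a call lost without decapitated WT replicate 2 (edgeR adjusted p = 0.068) or brc1-2 library 2b (edgeR adjusted p = 0.11). IPS1 (1.56 ± 0.55, edgeR adjusted p = 0.02) again passed the filter through the decapitated libraries, and its call was lost without decapitated WT replicate 3, brc1-2 library 2a or brc1-2 library 2b (edgeR adjusted p from 0.073 to 0.1). PEPC1 (0.88 ± 0.40), PHT1;4 (0.34 ± 0.15), SPX2 (0.13 ± 0.07) and SPX3 (-0.28 ± 0.48) did not pass. Of these, PEPC1 passed without brc1-2 library 2a (edgeR adjusted p = 0.011), PHT1;4 without 2b (edgeR adjusted p = 0.027), and SPX2 with no low-count filter or without decapitated WT replicate 3 (edgeR adjusted p of 0.026 and 0.012).

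Of the other pathway genes 13 were higher and 22 lower in decapitated WT than in brc1-2, of 58 tested (60.3% called, against 48.5% of all genes, 24.4% higher and 24.1% lower). The lower ones included UGP3 (-0.52 ± 0.04), DGD1 (-0.42 ± 0.04), GDPD6 (-1.17 ± 0.13), At4 (-0.46 ± 0.06), and LPR2 (-0.36 ± 0.05). The mitochondrial carrier PHT3;2 was also called lower (-3.52 ± 0.61), at 1, 4 and 2 counts against 14, 38 and 37, but it passed the low-count filter only through brc1-2, so the filter fixed that call in part. The higher ones included PHT3;1 (0.39 ± 0.03), G3Pp1 (0.56 ± 0.04), GDPD1 (0.67 ± 0.08), RNS1 (2.75 ± 0.35), AtPAP12 (0.35 ± 0.05) and PPCK1 (0.30 ± 0.04), all with edgeR adjusted p between 1.2e-12 and 1.8e-06. Of 16 lipid genes 8 were lower and 3 higher, of 22 signalling genes 9 were lower and 3 higher, of 10 recycling genes 3 were lower and 4 higher, and of 10 transport genes 2 were lower and 3 higher, beside 24.1% lower and 24.4% higher over all genes. The 5 leaf markers were also lower, at 16112 to 16730 CPM against 24844 to 25151 CPM in brc1-2, and their part was not tested.

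The 5 groups are next set side by side across separately scaled tables and different tissues, without a test. Most members had DMSO seedlings at the top of their order and differed in what came next. The groups did not overlap for SPX1, in the order DMSO (73.9 ± 9.14 CPM), rac-GR24 (42.1 ± 0.295), decapitated WT (23.1 ± 1.27), brc1-2 (18.5 ± 0.799) and intact WT (14.0 ± 0.279). PEPC1 had DMSO apart at 6.99 ± 1.98 CPM, with neighbouring groups among the other 4 overlapping between 0.346 and 0.639 CPM. MGD3 alone placed rac-GR24 seedlings (0.620 ± 0.194 CPM) below all axillary groups without overlap, the lowest of those being brc1-2 (1.18 ± 0.154). For PHT1;1 the order of the seedling groups was turned, with rac-GR24 (282 ± 8.74 CPM) above DMSO (197 ± 18.7).

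Over the 6 seedling libraries the log2 CPM of the members followed one another closely, apart from the transporters. SPX1 and SQD2 had a Pearson r of 0.99, as did PEPC1 and SQD2, while PEPC1 and PHT1;1 had -0.9. With only 2 groups these values mostly restate the difference between groups. Over the 9 axillary libraries the relations were looser. There r was 0.84 for PEPC1 and PS2, 0.83 for SPX1 and PHT1;4 and -0.77 for PEPC1 and PHT1;1. These values also include differences between groups, and PEPC1 and PHT1;1 held under 50 counts per library there. All libraries of a table share their scaling, and these values are descriptions without a test.

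The genes most like the mean of the standardised log2 CPM of the 10 members were, over the 6 seedling libraries, SAUR15 (AT4G38850, r = 0.998), AT1G22700 (0.996), AT4G14000 (0.996), AT5G59080 (0.996) and AT5G14430 (0.995), among 18945 genes compared. Over the 9 axillary libraries they were AT3G22480 (0.967), AT5G24990 (0.965), HCC1 (AT3G08950, 0.954), LHT1 (AT5G40780, 0.954) and AT3G47800 (0.953), among 18677 genes. The mean over the axillary libraries joins members that moved in different directions, and the seedling mean includes PHT1;1, which moved against the others. With DMSO and rac-GR24 as the only groups, the seedling values mostly restate the difference between them.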

How the data were processed

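The authors deposited raw counts, 1 table for seedlings and 1 for axillary tissue, with the columns of featureCounts output per the file headers. According to the submitters' processing notes, the build and tools were TAIR10, cutadapt 3.5, fastp 0.23.1, HISAT2 2.0.5, SAMtools 1.13 and featureCounts 2.0.1, without order or settings, with strand use not given in the sources used here. The seedling table ended in 1 incomplete line, which was dropped. Among the axillary columns, 2 carried the same brc1-2 replicate number and are called 2a and 2b. The 8 CUT&Tag samples were not analysed here. Even numbers made up 60.8% to 71.8% of the counts that lay between 1 and 20, so counts may hold both mates of a pair and are not independent molecules.

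Low genes were dropped by filterByExpr at a minimum count of 10 and a minimum total of 15, and the rest were given TMM factors and put through edgeR's quasi-likelihood test (version 4.0.16, R 4.3.3), adjusting p over all genes by Benjamini-Hochberg and calling at 0.05. One fit held the 9 axillary libraries, another the 6 from seedlings. "Rose", "fell" and "passed" refer to this test. CPM are counts scaled to the TMM library size, and likeness used log2(CPM + 0.5). In simulated data modelled on rac-GR24 against DMSO (20895 genes), 69.4% of 1.5-fold and 98.0% of 4-fold changes were found. Modelled on brc1-2 against intact WT (21338 genes), 85.0% and 98.0% were. False calls numbered 15 and 6. Each simulation changed only 200 genes, whereas 5060 and 13123 genes were called in the data, so these rates need not hold for the real fits.

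The members and gene lists were chosen with earlier results of these data known. Named genes were all 10 members, BRC1, up to 6 genes per direction with the smallest p in the 75-gene list, and the 5 genes most like the members in each table. PHR1, PHL1, PHO1 and PHO2 on rac-GR24, the MIR399 loci and single markers were added after their values were seen. Of 108 listed identifiers, 102 had a symbol in RefSeq (TAIR10.1). For pairs of replicates the chi-square over its degrees of freedom was 3.05 or more, where counting both mates would by itself raise this ratio from 1 to about 2. Alternatives were DESeq2 1.42.0, DESeq2 size factors, 2 other filters, only the groups compared, a replicate block, leaving out each library, and halved counts, the last added after the data were seen.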

Additional observations from a re-analysis of the deposited data

How the results depend on the processing

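The number of genes called stayed within 1.5 times its reported value in every alternative run, between 3909 and 5354 for rac-GR24, 12202 and 13419 for brc1-2, 12743 and 13683 for decapitation, and 9389 and 10792 for decapitated WT against brc1-2. The counts over the 75 other pathway genes ran from 19 to 28, 32 to 39, 30 to 36 and 31 to 35. Counted by sign alone, 7 to 9 members were lower on rac-GR24, with 7 where the filter of 1 CPM in 3 libraries left 8 members. Members called ran from 2 to 4 in brc1-2, 3 to 4 after decapitation and 4 to 7 between those groups, all counted with IPS1 wherever it was called. Called values of the members and of the pathway genes named by smallest p kept their direction in all alternatives that tested them. For other named genes and the markers, values under the alternatives were not compared with the main fit. Sign changes were seen among values that had not passed, most often for SPX2 after decapitation, whose change is close to 0.

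With the replicate number as a block, rac-GR24 gave 4712 calls, with 21 in the 75-gene list, and decapitation 13406, with 33. The block fit for decapitation also left out the brc1-2 libraries, so its differences from the main fit are not those of the block alone. In it the directions after decapitation moved from 6334 higher and 7222 lower to 6741 and 6665, and in the 75-gene list from 11 and 24 to 13 and 20. Same-numbered libraries did not clearly deviate together, with correlations of 0.11, -0.03 and -0.07 in seedlings and 0.02, 0.02 and 0.03 for decapitation. Libraries with different numbers had correlations from -0.1 to 0.13 in seedlings and from -0.03 to 0.02 for decapitation. These values cannot show whether the samples were paired by design. SQD2 was not called after decapitation with the block (edgeR adjusted p = 0.15). Nor was it called without a block when only intact and decapitated WT were fitted (edgeR adjusted p = 0.16). No paired analysis was possible for brc1-2 because 2 of its columns carry the same number.

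Depth limits IPS1, SPX3 and, in axillary tissue, PEPC1 and PHT1;1, which held under 50 counts per library there. Halving the counts took IPS1 and SPX3 out of the axillary test, where 8 members were left.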
